A study of Mus musculus with 6 samples.

Results

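The extracellular matrix and fibroblast genes described here are 42 genes that encode collagens, laminins, other matrix proteins, their modifying enzymes and inhibitors, and a few proteins used to recognise fibroblasts. They were chosen by name, with no measured value in the rule but with earlier results of these data known. In the count table of 23337 genes, 42 of 42 were found. All 42 also passed the filter on low counts, which kept 14587 genes. Wildtype mice had received an adeno-associated virus (AAV) on postnatal day 1. The virus carried GFP (green fluorescent protein, the control), XBP1S or ATF6N, and at an age of 4 weeks the hearts were digested by Langendorff perfusion and cardiomyocytes purified by fluorescence-activated cell sorting. Each group had 2 libraries, so 6 in all, named AAV-GFP, AAV-XBP1S and AAV-ATF6N replicates 1 and 2. The sources used here do not give the promoter and serotype of the virus, the sex and strain of the mice or the number of hearts per library, and nothing says that the replicates came from separate animals, so the p-values measure the spread between these libraries, which may be technical.

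XBP1S is made from spliced Xbp1 mRNA, and ATF6N is the usual name for the part of ATF6 that enters the nucleus after cleavage. As transcription factors they act in the unfolded protein response, which raises the folding and export capacity of the endoplasmic reticulum. Matrix proteins are among the largest and most abundant cargoes of that compartment. In the heart most interstitial matrix is made by fibroblasts, whereas each cardiomyocyte, capillary and smooth muscle cell is wrapped in a basement membrane of laminin, collagen IV, nidogen and perlecan, to which the cell underneath contributes. In a library of sorted cardiomyocytes, a matrix transcript may therefore come from the cardiomyocyte or from other cells that came through the sort.

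The libraries held 67702482 to 112049342 counts, and 14 cardiomyocyte markers summed to 121243 to 166250 CPM (the usual depth-scaled count, here scaled by the trimmed mean of M values). AAV-GFP replicate 1 stood apart: it lay at -63.8 on the first principal component, against -24.3 to 34.8 in the other 5 libraries, and 0.337% of its counts were the ribosomal RNA precursor Rn45s, against 0.0319% to 0.130% elsewhere. The replicates also differed in how well they matched. The median absolute log2 ratio between the replicates over the 42 genes was 0.71 in AAV-GFP, 0.39 in AAV-XBP1S and 0.10 in AAV-ATF6N. Xbp1 was measured at 98.0 and 115 CPM in AAV-GFP, 160.4 and 166 in AAV-XBP1S, with 145 and 152 in AAV-ATF6N, and Atf6 at 44.9 and 70.6 (AAV-GFP), 77.0 and 111 (AAV-XBP1S) and 162 and 158 (AAV-ATF6N). The Y-linked Eif2s3y was at 16.6 and 13.7 CPM in AAV-GFP, at 0 in both AAV-XBP1S libraries and at 44.3 and 43.2 in AAV-ATF6N. Xist, made from the inactive X chromosome, was at 24.6 and 7.88 CPM (AAV-GFP), 43.1 and 20.2 (AAV-XBP1S) and 0.197 and 0.0919 (AAV-ATF6N), so that both AAV-GFP libraries held both transcripts. The AAV-XBP1S libraries thus had the pattern of females, the AAV-ATF6N libraries that of males, and the AAV-GFP libraries a mixture of both. An effect of sex on the matrix genes cannot be told apart from one of the virus. The part of Rn45s and of this first control library's RNA in the matrix gene values was not tested, and medians without that library close the results.

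The matrix and fibroblast genes took 0.283% and 0.432% of all counts with AAV-GFP, 0.547% and 0.655% with AAV-XBP1S, and 0.513% and 0.493% with AAV-ATF6N. All 4 libraries with a transcription factor were above both controls. AAV-GFP replicate 1 was the lowest of the 6 libraries for 29 of the 42 genes (69.0%, against 30.6% of all genes tested). AAV-XBP1S replicate 2 was the highest for 17 (40.5%, against 16.9%). In bulk libraries such as these, fewer cells of a type and less RNA per cell cannot be told apart.

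**Figure D1:**
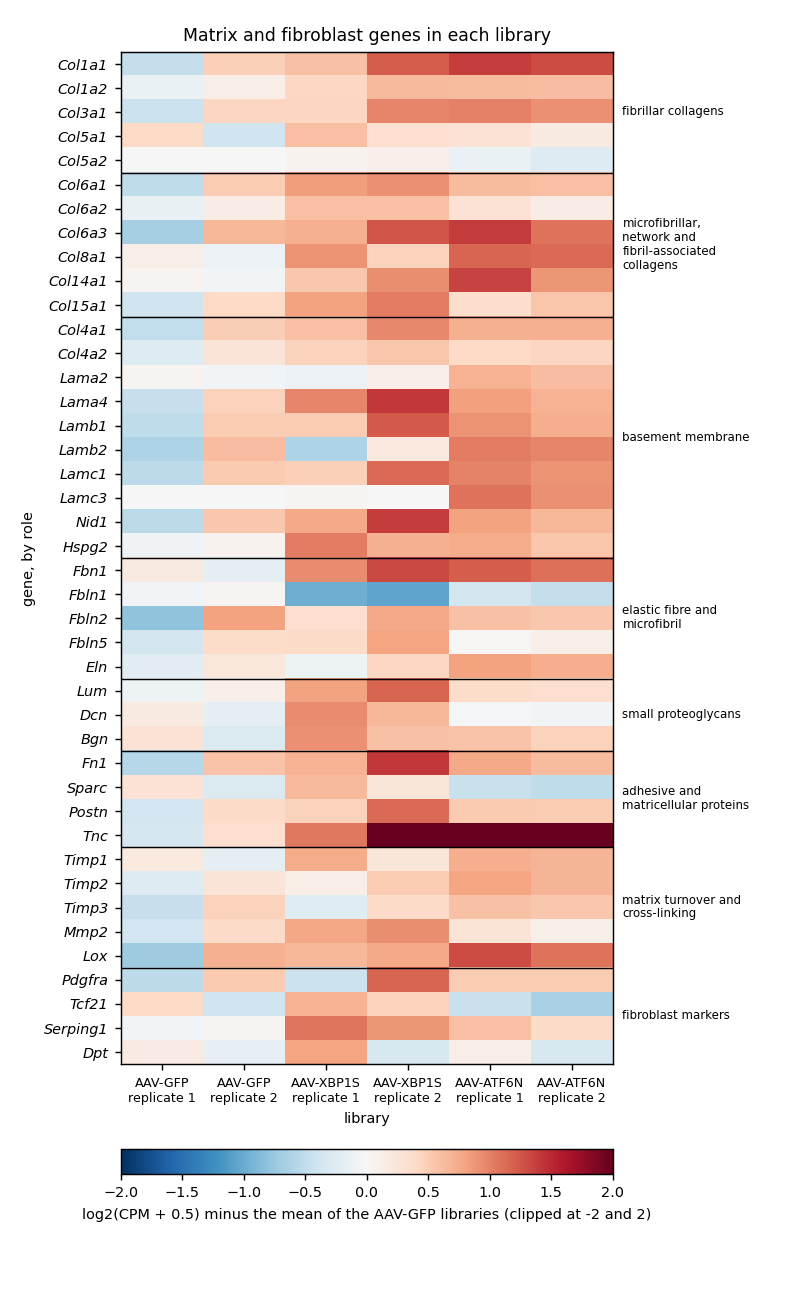
Each row is a gene, grouped by role, and each column a library; colour gives log2(CPM + 0.5) minus the mean of the 2 AAV-GFP libraries, clipped at -2 and 2. AAV-GFP replicate 1 has the lowest value for 29 of the 42 genes, the AAV-XBP1S and AAV-ATF6N columns are mostly red, and Fbln1 is blue in both AAV-XBP1S libraries.

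With AAV-XBP1S against AAV-GFP, 40 of the 42 genes had a log2 fold change above 0, against 48.8% of all genes tested, and the median was 0.74, against -0.01 over all genes. Without Lamc3, which has 2 reads in these 4 libraries, the median of the other 41 was 0.73. None of the 42 passed the threshold of an adjusted p under 0.05 in edgeR (quasi-likelihood test, Benjamini-Hochberg adjusted), which called 0.178% of all genes higher and 0.137% lower. The smallest adjusted p was 0.111, for Fbln1. At an unadjusted p under 0.05, 17 were higher and 1 lower (6.37% and 5.21% of all genes). The ranges of the groups did not overlap for 26 higher genes and 1 lower gene (19.1% and 16.8% of all genes). DESeq2 on the same counts called 6 higher, namely Lama4, Lum, Serping1, Fbn1, Tnc and Hspg2, and 1 lower, Fbln1 (2.1% and 1.47% of all genes). The authors' deposited table has an adjusted p under 0.05 for 1 of the 41 genes that have a value in it, Tnc (0.809% of the genes in that table are called higher and 0.502% lower).

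With AAV-ATF6N against AAV-GFP, 36 of 42 genes were above 0, against 48.7% of all genes, and the median log2 fold change was 0.61, against -0.02. With Lamc3 left out, the median was 0.60. Again none passed in edgeR (0.35% of all genes were called higher and 0.165% lower), and the smallest adjusted p was 0.137, for Fbn1. At an unadjusted p under 0.05, 14 were higher and none lower (6.92% and 6.54% of all genes). The groups did not overlap for 29 higher genes, of which Lamc3 had to differ because it passed the low-count filter only through AAV-ATF6N, and for 4 lower genes, Col5a2, Fbln1, Sparc and Tcf21 (27.9% and 26.7% of all genes). DESeq2 called 6 higher, Col1a1, Col14a1, Col8a1, Lamc3, Fbn1 and Tnc, and none lower (2.42% and 1.65% of all genes). The authors' deposited table calls 5 higher, which are these without Col14a1 (1.77% of its genes are called higher and 0.937% lower). Lamc3 is also among the 14 and the 6, where the same filter means that it gives no independent support. Both comparisons use the same AAV-GFP libraries and are therefore not independent of each other.

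The direct comparison of AAV-ATF6N with AAV-XBP1S uses no AAV-GFP library for its fold changes. Its median over the 42 genes was -0.08 (-0.01 over all genes, and -0.09 without Lamc3), with 18 of 42 above 0, against 49.5% of all genes. None passed in edgeR (0.171% of all genes called higher, 0.0548% lower), and the smallest adjusted p was 0.159, for Dcn. At an unadjusted p under 0.05, 4 were higher and 5 lower (5.69% and 7.55% of all genes). The groups did not overlap for 11 higher and 15 lower genes (30.1% and 26.8%). DESeq2 called Lamc3 higher and Dcn and Sparc lower (2.2% and 3.55% of all genes). Lamc3 is also among the 4 and the 11 higher genes. Having passed the low-count filter only through AAV-ATF6N, it gives no independent support in any of these counts.

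**Figure D2:**
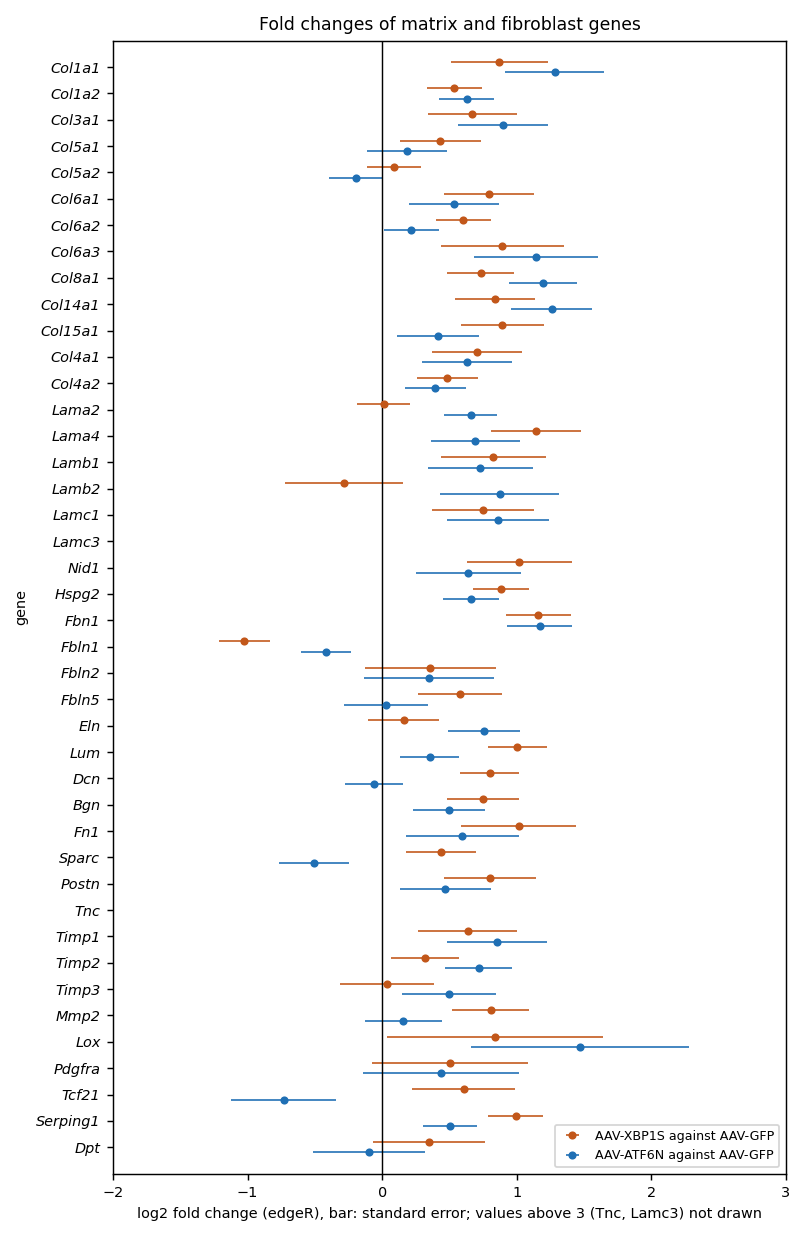
Points are edgeR log2 fold changes of each gene against AAV-GFP (AAV-XBP1S in orange, AAV-ATF6N in blue), bars are standard errors, and the vertical line marks 0; values above 3, those of Tnc and Lamc3, are not drawn. Most points lie right of 0 in both colours, Fbln1 lies left in both, and Dcn, Sparc, Tcf21 and Lama2 have their colours furthest apart relative to the bars.

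Promoter sequences bear on these genes because XBP1S and ATF6N bind known DNA elements. RefSeq (GRCm38.p6) promoter windows, 250 bases before to 50 after a start, were at hand for 29 of the 42 genes (34 windows) and were searched on both strands. The ER stress response element (ERSE) and its variant ERSE-II were in 0 of the 34, against 0.119% and 0.0365% of all 32851 windows. The unfolded protein response element (UPRE, TGACGTGG) was in 1, that of Timp1, an inhibitor of matrix metalloproteinases, against 0.676% of all windows. The core ACGTG, which the UPRE contains, was in 5 of 34 (14.7%, against 19.6% of all windows), those of Col1a2, Col5a1, Fbln1 and Timp1. The 250 bases before the start follow, with the core or the UPRE in capitals (CACGT is the core on the other strand, and CACGTG holds it on both). The first 4 are those that hold the core. Fbn1 and Tnc are shown because they have low p-values in both comparisons with AAV-GFP, and neither of their windows holds any of the 4 motifs.
Fbln1, chr15:85205699-85205948, plus strand: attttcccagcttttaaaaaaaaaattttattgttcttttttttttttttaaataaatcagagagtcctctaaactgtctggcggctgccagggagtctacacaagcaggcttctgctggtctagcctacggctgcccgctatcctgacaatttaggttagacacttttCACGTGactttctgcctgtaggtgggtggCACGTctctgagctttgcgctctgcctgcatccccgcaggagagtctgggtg
Timp1, chrX:20869916-20870165, plus strand: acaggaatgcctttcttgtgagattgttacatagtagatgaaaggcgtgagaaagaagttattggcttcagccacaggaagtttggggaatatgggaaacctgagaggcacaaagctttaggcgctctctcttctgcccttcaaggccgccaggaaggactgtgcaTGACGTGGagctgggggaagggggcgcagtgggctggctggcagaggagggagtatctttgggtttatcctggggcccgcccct
Col1a2, chr6:4505368-4505617, plus strand: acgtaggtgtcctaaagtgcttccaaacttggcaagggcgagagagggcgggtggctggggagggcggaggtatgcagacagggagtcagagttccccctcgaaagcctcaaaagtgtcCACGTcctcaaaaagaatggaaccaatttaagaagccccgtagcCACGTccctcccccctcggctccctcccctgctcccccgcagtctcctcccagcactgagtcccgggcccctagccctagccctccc
Col5a1, chr2:27886175-27886424, plus strand: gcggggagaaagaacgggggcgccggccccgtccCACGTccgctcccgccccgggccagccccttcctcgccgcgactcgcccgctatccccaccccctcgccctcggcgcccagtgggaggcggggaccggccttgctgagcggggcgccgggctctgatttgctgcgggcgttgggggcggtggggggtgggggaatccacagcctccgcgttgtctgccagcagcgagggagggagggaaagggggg
Fbn1, chr2:125506439-125506688, minus strand: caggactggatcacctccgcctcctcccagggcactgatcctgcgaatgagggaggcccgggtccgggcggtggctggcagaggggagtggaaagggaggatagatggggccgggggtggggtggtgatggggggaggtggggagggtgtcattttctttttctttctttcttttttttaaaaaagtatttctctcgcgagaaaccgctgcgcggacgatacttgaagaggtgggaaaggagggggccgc
Tnc, chr4:64047016-64047265, minus strand: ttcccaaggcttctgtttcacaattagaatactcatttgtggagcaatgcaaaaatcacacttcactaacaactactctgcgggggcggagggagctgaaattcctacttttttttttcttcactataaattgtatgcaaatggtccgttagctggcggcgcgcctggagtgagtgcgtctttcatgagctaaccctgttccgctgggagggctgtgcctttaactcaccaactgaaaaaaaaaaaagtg

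The fibrillar collagens form the tensile fibres of the interstitium: Col1a1 and Col1a2 encode the chains of collagen I, Col3a1 collagen III, and Col5a1 and Col5a2 chains of collagen V, which starts fibril assembly. Col3a1 had the highest level per length of the 5, at 59.7 CPM per kilobase of exon over all libraries, and Col5a2 the lowest, at 2.25. Col1a1 was measured at 20.0 and 39.0 CPM in AAV-GFP, 42.4 and 65.6 in AAV-XBP1S, with 73.6 and 69.9 in AAV-ATF6N. Both AAV-ATF6N libraries were above the other 4, and both AAV-XBP1S libraries were above both controls, although AAV-GFP replicate 2 was close to the lower of them. Its log2 fold change was 1.28 with AAV-ATF6N (SE 0.37; edgeR adjusted p = 0.262, DESeq2 adjusted p = 0.0270) and 0.87 with AAV-XBP1S (SE 0.36; edgeR adjusted p = 0.429). Col3a1 was at 158 and 289 CPM (AAV-GFP), 288 and 424 (AAV-XBP1S) and 430.4 and 403 (AAV-ATF6N), so the lower AAV-XBP1S library lay just under the higher control. Its log2 fold changes were 0.67 (SE 0.33) with AAV-XBP1S and 0.90 (SE 0.33) with AAV-ATF6N, with edgeR adjusted p = 0.502 and 0.347. The collagen V genes had smaller values: the log2 fold changes of Col5a1 and Col5a2 against AAV-GFP ran from -0.20 to 0.43. Col1a2 had log2 fold changes of 0.54 (SE 0.20) with AAV-XBP1S and 0.63 (SE 0.20) with AAV-ATF6N. The ratio of Col1a1 to Col1a2 per length was 0.424 and 0.689 with AAV-GFP, 0.610 and 0.809 with AAV-XBP1S, and 0.911 and 0.878 with AAV-ATF6N, so the 2 chains of collagen I were closest to equal in the AAV-ATF6N libraries.

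Among the other collagens, Col6a1, Col6a2 and Col6a3 encode the beaded microfibrils of collagen VI that link cells to the interstitium, Col8a1 a network collagen of vessels, Col14a1 a fibril-associated collagen, and Col15a1 a collagen of muscle and capillary basement membrane zones. With AAV-XBP1S, the groups did not overlap, upwards, for 6 of these 6 genes (19.1% of all genes tested), with log2 fold changes from 0.60 (Col6a2) to 0.89 (Col6a3 and Col15a1). With AAV-ATF6N this held for 4 of 6 (27.9% of all genes), not for Col6a2 (log2 fold change 0.22) or Col15a1 (0.42). Col8a1 was at 7.68 and 6.48 CPM in AAV-GFP, 13.6 and 9.90 in AAV-XBP1S, with 16.5 and 16.0 in AAV-ATF6N, the 3 groups standing in that order with no overlap. Its log2 fold change with AAV-ATF6N was 1.20 (SE 0.25; edgeR adjusted p = 0.140, DESeq2 adjusted p = 0.00327), and with AAV-XBP1S 0.73 (SE 0.25; edgeR adjusted p = 0.353). Col14a1 was at 3.24 and 2.95 CPM (AAV-GFP), 4.70 and 6.36 (AAV-XBP1S) and 8.69 and 6.12 (AAV-ATF6N), with both factor groups above the controls and overlapping each other. With AAV-ATF6N its log2 fold change was 1.26 (SE 0.30; edgeR adjusted p = 0.189, DESeq2 adjusted p = 0.0162). Col6a1, the highest of the 6 per length, was at 32.4 and 66.7 CPM (AAV-GFP), 83.6 and 88.2 (AAV-XBP1S) and 72.4 and 71.0 (AAV-ATF6N): the AAV-XBP1S libraries were the highest and the controls were the most spread. The log2 fold changes were 0.79 (SE 0.34) and 0.53 (SE 0.33), with edgeR adjusted p = 0.434 and 0.443.

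Basement membrane genes made up 10 of the 42. Collagen IV (Col4a1, Col4a2) builds the sheet, laminin trimers of an alpha (Lama2, Lama4), a beta (Lamb1, Lamb2) and a gamma chain (Lamc1, Lamc3) bind the cell, nidogen (Nid1) joins the laminin and collagen networks, and Hspg2 encodes the heparan sulfate proteoglycan perlecan. With AAV-ATF6N, the groups did not overlap, upwards, for 9 of the 9 other than Lamc3 (27.9% of all genes tested). Lamc3 did not overlap either, but passed the filter on low counts only through AAV-ATF6N, and so had to differ. The 10 genes had a median log2 fold change of 0.68 (0.66 without Lamc3). With AAV-XBP1S this held for 5 of the 10 (19.1% of all genes), with a median of 0.79 (0.75 without Lamc3). Col4a1, the highest of the 10 per length, was at 348 and 689 CPM in AAV-GFP, 740.2 and 951 in AAV-XBP1S, with 805 and 801 in AAV-ATF6N. The 4 factor libraries were above both controls, and the second control was nearly as high as the lowest of them. The log2 fold changes were 0.71 (SE 0.33; edgeR adjusted p = 0.479) and 0.63 (SE 0.33; edgeR adjusted p = 0.405). Collagen IV's other chain, Col4a2, the chains Lamb1 and Lamc1 and nidogen had log2 fold changes from 0.48 (Col4a2) to 1.02 (Nid1) with AAV-XBP1S and from 0.40 (Col4a2) to 0.86 (Lamc1) with AAV-ATF6N. The controls lay close together for perlecan: Hspg2 was at 57.3 and 63.0 CPM in AAV-GFP, 123 and 98.9 in AAV-XBP1S, with 101 and 88.9 in AAV-ATF6N. Its log2 fold change was 0.89 with AAV-XBP1S (SE 0.21; edgeR adjusted p = 0.206, DESeq2 adjusted p = 0.0147) and 0.66 with AAV-ATF6N (SE 0.21; edgeR adjusted p = 0.298).

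No laminin gene passed in edgeR in the direct comparison of the factors. Lama2 encodes the alpha chain typical of the muscle basement membrane, and was at 54.6 and 50.2 CPM in AAV-GFP, 48.4 and 57.3 in AAV-XBP1S, with 84.6 and 80.7 in AAV-ATF6N. The AAV-ATF6N libraries were above the other 4, while the AAV-XBP1S libraries straddled the controls. The log2 fold change with AAV-ATF6N was 0.66 against AAV-GFP (SE 0.20; edgeR adjusted p = 0.277) and 0.65 against AAV-XBP1S (SE 0.20; edgeR adjusted p = 0.218). Lama4 encodes the alpha chain typical of vessels, and was at 38.5 and 72.9 CPM (AAV-GFP), 104 and 142 (AAV-XBP1S) and 93.7 and 86.1 (AAV-ATF6N), highest in AAV-XBP1S. Its log2 fold change with AAV-XBP1S was 1.14 (SE 0.33; edgeR adjusted p = 0.287, DESeq2 adjusted p = 0.0437). Without AAV-GFP replicate 1, the Lama4 value was 0.75, and without AAV-GFP replicate 2 it was 1.71.

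Lamb2, the beta chain enriched at the neuromuscular junction and in muscle, was at 281 and 667 CPM in AAV-GFP, 282 and 498 in AAV-XBP1S, with 882 and 854 in AAV-ATF6N. Controls and AAV-XBP1S overlapped, and both AAV-ATF6N libraries were above the other 4, with a log2 difference from AAV-XBP1S of 1.15 (SE 0.44; edgeR adjusted p = 0.335). Set against its sister chain Lamb1 within each library, and per length, Lamb2 was 6.21 and 7.20 times as high in AAV-GFP and 7.31 and 7.92 times in AAV-ATF6N, but 3.06 and 3.27 times in AAV-XBP1S. The same held against Lamc1, with ratios of 6.48 and 7.48, 7.10 and 7.33, and 3.24 and 3.65. The AAV-XBP1S libraries were below the other 4 in both ratios, and in each group the replicates lay close together, including the controls that were apart in level. The ratio of Lama2 to Lama4 was also lowest in AAV-XBP1S, at 0.288 and 0.252, against 0.884 and 0.429 in AAV-GFP and 0.562 and 0.583 in AAV-ATF6N. With 2 libraries against 2, an exact two-sided permutation test of such a ratio cannot give a p below 0.333, so these ratios are given as values.

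Lamc3, a gamma chain of low abundance, had no read in either AAV-GFP library, 2 and 0 counts in AAV-XBP1S, with 46 and 29 in AAV-ATF6N. Its summed level in AAV-ATF6N was at least 28.6-fold higher than in AAV-GFP, taking 3 counts over both AAV-GFP libraries as the limit that a count of 0 allows. Against AAV-XBP1S the ratio of summed counts was 44.8 (95% exact binomial interval 12.0 to 376, counting error only). In edgeR the adjusted p was 0.190 against AAV-GFP and 0.192 against AAV-XBP1S, and in DESeq2 0.00573 and 0.0396. Lamc3 passed the filter on low counts through the AAV-ATF6N libraries alone, so these p-values and the interval are no independent support for its difference. Its level was the lowest of the 42 genes per length, at 0.0290 CPM per kilobase over all libraries.

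Of the elastic fibre genes, Fbn1 encodes fibrillin, the core of the microfibrils that store latent TGF-beta, Eln elastin, and Fbln1, Fbln2 and Fbln5 the fibulins that tie elastin, fibronectin and basement membranes together. Fbn1 was at 16.6 and 12.8 CPM in AAV-GFP, 28.6 and 37.2 in AAV-XBP1S, with 34.5 and 31.8 in AAV-ATF6N. Both factor groups lay above both controls and overlapped each other. Its log2 fold change was 1.16 with AAV-XBP1S (SE 0.24; edgeR adjusted p = 0.160, DESeq2 adjusted p = 0.00335) and 1.17 with AAV-ATF6N (SE 0.24; edgeR adjusted p = 0.137, DESeq2 adjusted p = 0.00251). In the authors' deposited table its adjusted p was 0.136 with AAV-XBP1S and 0.0151 with AAV-ATF6N.

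Fbln1 was the only one of the 42 genes with non-overlapping groups downwards in AAV-XBP1S. It was at 64.2 and 69.3 CPM in AAV-GFP, 33.7 and 31.9 in AAV-XBP1S, with 51.8 and 48.0 in AAV-ATF6N, so the 3 groups were separate, with AAV-XBP1S lowest and AAV-ATF6N between. The log2 fold change with AAV-XBP1S was -1.03 (SE 0.19; edgeR adjusted p = 0.111, DESeq2 adjusted p = 3.15e-04). With any single library left out, the estimate stayed between -1.08 and -0.94. With AAV-ATF6N it was -0.42 (SE 0.19; edgeR adjusted p = 0.378), and AAV-ATF6N against AAV-XBP1S gave 0.61 (SE 0.19; edgeR adjusted p = 0.228). Fbln5, needed for elastic fibre assembly, had log2 fold changes of 0.58 (SE 0.31) and 0.03 (SE 0.31). Eln was at 18.9 and 25.8 CPM (AAV-GFP), 20.5 and 29.4 (AAV-XBP1S) and 38.8 and 36.7 (AAV-ATF6N), above both controls in AAV-ATF6N. Fbln2 was the most uneven of the fibulins between the controls, at 22.1 and 68.5 CPM, with the 4 factor libraries between them, from 49.5 to 66.6 CPM.

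The small leucine-rich proteoglycans decorin (Dcn), lumican (Lum) and biglycan (Bgn) coat collagen fibrils and set their spacing. All 3 had non-overlapping groups upwards with AAV-XBP1S (19.1% of all genes tested), and all 3 were lower in both AAV-ATF6N libraries than in both AAV-XBP1S libraries (26.8%). Dcn, the highest of the 3 per length, was at 191 and 148 CPM in AAV-GFP, 324 and 265 in AAV-XBP1S, with 163 and 162 in AAV-ATF6N. The AAV-XBP1S libraries stood above the other 4, and the AAV-ATF6N libraries lay within the control range. Its log2 fold change was 0.80 with AAV-XBP1S (SE 0.22; edgeR adjusted p = 0.255), -0.06 with AAV-ATF6N (SE 0.22; edgeR adjusted p = 0.890) and -0.86 for AAV-ATF6N against AAV-XBP1S (SE 0.22; edgeR adjusted p = 0.159, DESeq2 adjusted p = 0.0219). Bgn had log2 fold changes of 0.75 (SE 0.27) with AAV-XBP1S and 0.50 (SE 0.27) with AAV-ATF6N. Lum was at 21.8 and 25.1 CPM (AAV-GFP), 41.2 and 53.1 (AAV-XBP1S) and 30.3 and 29.7 (AAV-ATF6N), again highest in AAV-XBP1S, with AAV-ATF6N between it and the controls. With AAV-XBP1S, Lum had a log2 fold change of 1.01 (SE 0.22; edgeR adjusted p = 0.170, DESeq2 adjusted p = 0.00580), and AAV-ATF6N against AAV-XBP1S gave -0.65 (SE 0.22; edgeR adjusted p = 0.260).

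Among the adhesive and matricellular proteins, fibronectin (Fn1) joins integrins to collagen, periostin (Postn) and tenascin C (Tnc) are typical of remodelling matrix, and Sparc binds collagen and is also made by endothelium. Tnc had the largest fold changes against AAV-GFP of the genes with reads in every library. It was at 0.0203 and 0.337 CPM in AAV-GFP, 0.871 and 4.29 in AAV-XBP1S, with 4.60 and 5.51 in AAV-ATF6N, so the groups were separate and in that order, at low levels. Its group mean was 14.5-fold that of AAV-GFP in AAV-XBP1S and 28.3-fold in AAV-ATF6N; AAV-GFP replicate 1 held 2 reads and replicate 2 held 24. The log2 fold changes were 3.92 (SE 1.15; edgeR adjusted p = 0.287, DESeq2 adjusted p = 0.00350) and 4.89 (SE 1.18; edgeR adjusted p = 0.193, DESeq2 adjusted p = 4.81e-05). With 1 library left out, the AAV-XBP1S value ran from 2.35 (without AAV-XBP1S replicate 2) to 6.93 (without AAV-GFP replicate 2), and the AAV-ATF6N value from 3.90 (without AAV-GFP replicate 1) to 7.87 (without AAV-GFP replicate 2). The authors' deposited table gives Tnc an adjusted p of 0.00885 with AAV-XBP1S and 1.14e-08 with AAV-ATF6N. Sparc, at 336 CPM per kilobase the highest of the 42 genes per length, was at 910.0 and 606 CPM in AAV-GFP, 1169 and 881 in AAV-XBP1S, with 544 and 523 in AAV-ATF6N. The AAV-ATF6N libraries were below the other 4, and controls and AAV-XBP1S overlapped. AAV-ATF6N against AAV-XBP1S gave a log2 difference of -0.94 (SE 0.26; edgeR adjusted p = 0.187, DESeq2 adjusted p = 0.0369). Fn1 and Postn had log2 fold changes of 1.01 and 0.80 with AAV-XBP1S (edgeR adjusted p = 0.432 and 0.434). With AAV-ATF6N they were 0.60 and 0.47 (edgeR adjusted p = 0.476 and 0.481). The groups did not overlap in either comparison (19.1% and 27.9% of all genes tested were higher in this way). The controls were at 9.98 and 22.7 CPM for Fn1 and 17.2 and 29.8 for Postn. The lowest factor library was close to the higher control, at 23.6 CPM for Fn1 and 31.4 for Postn.

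**Figure D3:**
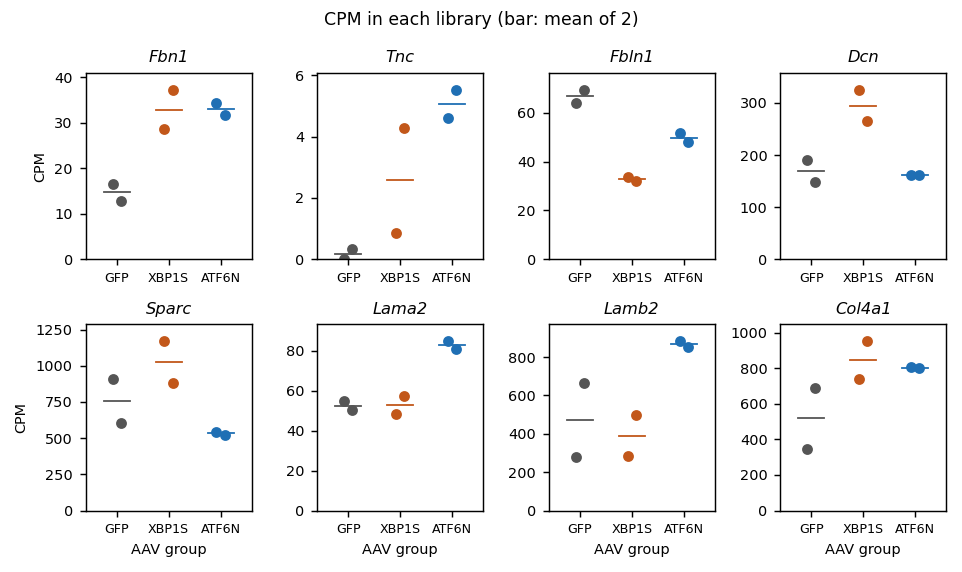
Each panel is a gene, the vertical axis is CPM from 0, points are the 2 libraries of a group and bars their mean. Fbn1 and Tnc are higher in both factor groups than in AAV-GFP, Fbln1 is lowest in AAV-XBP1S, Dcn is highest in AAV-XBP1S, Sparc is lowest in AAV-ATF6N, Lama2 and Lamb2 are highest in AAV-ATF6N, and the Col4a1 controls are 348 and 689 CPM.

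Matrix turnover was represented by the metalloproteinase Mmp2, its inhibitors Timp1, Timp2 and Timp3, and the collagen cross-linking enzyme Lox. Timp1 and Timp3 lie on the opposite strand within introns of the synapsin genes Syn1 and Syn3. The strand setting of the counting is unknown here, so reads from unspliced synapsin transcripts cannot be told apart from theirs. Timp3, the highest per length, was at 126 and 237 CPM in AAV-GFP, 147 and 225 in AAV-XBP1S, with 259.7 and 252 in AAV-ATF6N: the AAV-XBP1S libraries lay within the control range and the AAV-ATF6N libraries above it. Its log2 fold changes were 0.04 (SE 0.35; edgeR adjusted p = 0.975) and 0.50 (SE 0.35; edgeR adjusted p = 0.473). Timp2 was likewise above both controls in AAV-ATF6N and overlapped them in AAV-XBP1S, with log2 fold changes of 0.72 (SE 0.25) and 0.32 (SE 0.25). Mmp2 had the reverse order of the factors, at 27.3 and 47.0 CPM (AAV-GFP), 61.4 and 68.7 (AAV-XBP1S) and 43.6 and 39.1 (AAV-ATF6N), highest in AAV-XBP1S. Timp1, the gene with the UPRE in its promoter, was at 1.77 and 1.23 CPM (AAV-GFP), 2.82 and 1.86 (AAV-XBP1S) and 2.77 and 2.66 (AAV-ATF6N). Its log2 fold changes were 0.64 (SE 0.37; edgeR adjusted p = 0.561) and 0.85 (SE 0.37; edgeR adjusted p = 0.377). Lox was at 0.183 and 1.32 CPM in AAV-GFP, 1.27 and 1.39 in AAV-XBP1S, with 2.25 and 1.87 in AAV-ATF6N, where the first control was far below the other 5 libraries.

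All 4 fibroblast markers had log2 fold changes above 0 with AAV-XBP1S against AAV-GFP (48.8% of all genes) and below 0 for AAV-ATF6N against AAV-XBP1S, although 0 of the 4 passed in edgeR. Serping1, a complement inhibitor abundant in cardiac fibroblasts, was at 22.9 and 24.8 CPM in AAV-GFP, 50.7 and 44.3 in AAV-XBP1S, with 36.3 and 31.3 in AAV-ATF6N, with the 3 groups separate and AAV-XBP1S highest. The log2 fold change with AAV-XBP1S was 0.99 (SE 0.20; edgeR adjusted p = 0.151, DESeq2 adjusted p = 0.00260), and with AAV-ATF6N 0.50 (SE 0.20; edgeR adjusted p = 0.358). Tcf21, a transcription factor of the fibroblast and epicardial lineage, was at 3.60 and 1.88 CPM (AAV-GFP), 4.55 and 3.81 (AAV-XBP1S) and 1.80 and 1.5 (AAV-ATF6N), lowest in AAV-ATF6N. AAV-ATF6N against AAV-XBP1S gave -1.34 (SE 0.39; edgeR adjusted p = 0.207). With either AAV-GFP library left out, or in a fit of these 2 groups alone, the edgeR adjusted p of Tcf21, Dcn and Sparc in this comparison was under 0.05. The receptor gene Pdgfra, which marks cardiac fibroblasts, was at 4.81 and 10.6 CPM (AAV-GFP), 5.20 and 16.6 (AAV-XBP1S) and 10.4 and 10.4 (AAV-ATF6N), and Dpt (dermatopontin) at 7.57 and 5.88 (AAV-GFP), 11.8 and 5.26 (AAV-XBP1S) and 7.36 and 5.22 (AAV-ATF6N); in both genes the AAV-XBP1S libraries lay on either side of most others.

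Other matrix pathways were described through 5 further lists. Of all genes tested, 6.37% were higher and 5.21% lower at an unadjusted p under 0.05 with AAV-XBP1S. These shares were 6.92% and 6.54% with AAV-ATF6N, and 5.69% and 7.55% in the direct comparison. DESeq2 called 2.1% higher and 1.47% lower, 2.42% and 1.65%, and 2.2% and 3.55% in the 3 comparisons. The counts of all 5 lists are to be read beside these shares. Of 40 other structural matrix genes, the matricellular gene Thbs1 (thrombospondin) passed the test with AAV-ATF6N. It was at 2.65 and 4.70 CPM in AAV-GFP, 4.92 and 10.5 in AAV-XBP1S, with 69.2 and 57.6 in AAV-ATF6N, and rose by 4.11 on the log2 scale against AAV-GFP (SE 0.47; edgeR adjusted p = 0.0277). Both AAV-ATF6N libraries were far above the other 4. The call was lost, with the estimate between 3.97 and 4.24, when any AAV-XBP1S or AAV-ATF6N library was left out (edgeR adjusted p from 0.063 to 0.112), and in a fit of the 2 groups alone (edgeR adjusted p = 0.0766). In this list 0 genes passed with AAV-XBP1S and 0 in the direct comparison, and the median log2 fold changes were 0.46 with AAV-XBP1S and 0.25 with AAV-ATF6N. At an unadjusted p under 0.05 the list had 8 higher and 1 lower with AAV-XBP1S, 10 and 2 with AAV-ATF6N, and 6 and 6 in the direct comparison, and DESeq2 called 3 higher, 5 higher, and 3 higher with 3 lower. The lowest p-values after Thbs1 were those of Emilin1 (log2 fold change 1.09, SE 0.25) and Ecm1 (0.80, SE 0.21) with AAV-XBP1S, of Prelp (2.32, SE 0.39) with AAV-ATF6N, and of Sparcl1 (-0.99, SE 0.22) in the direct comparison.

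Of 21 genes for collagen folding and export from the endoplasmic reticulum, 20 were tested and 0 passed in edgeR in any of the 3 comparisons (at an unadjusted p under 0.05, 1 higher, 5 higher, and 3 higher with 2 lower; DESeq2 called 0, 2 higher, and 1 higher with 1 lower). The median log2 fold changes were 0.09 with AAV-XBP1S and 0.12 with AAV-ATF6N. Serpinh1, the collagen chaperone, was at 589.7 and 726 CPM in AAV-GFP, 544 and 527 in AAV-XBP1S, with 985 and 1045 in AAV-ATF6N, and P4hb, a subunit of prolyl hydroxylase and a disulfide isomerase, at 299.6 and 394 (AAV-GFP), 409.7 and 462 (AAV-XBP1S) and 638 and 633 (AAV-ATF6N). In both genes the AAV-ATF6N libraries were above the other 4. The log2 difference of Serpinh1 between AAV-ATF6N and AAV-XBP1S was 0.92 (SE 0.19; edgeR adjusted p = 0.107), and that of P4hb against AAV-GFP 0.87 (SE 0.21; edgeR adjusted p = 0.193). The other genes of smallest p here were Creb3l2 with AAV-ATF6N (1.54, SE 0.44), Fkbp14 and Fkbp10 with AAV-XBP1S (0.82, SE 0.27, and 0.47, SE 0.23) and Fkbp10 in the direct comparison (-0.84, SE 0.24).

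In the 3 remaining lists, matrix proteases, inhibitors and cross-linkers (26 of 27 tested), TGF-beta ligands, receptors and targets (20 of 20) and matrix receptors (22 of 22), 0 genes passed in edgeR in any comparison. At an unadjusted p under 0.05, the proteases and their partners had 6 higher and 2 lower genes with AAV-XBP1S, 2 and 1 with AAV-ATF6N, and 3 and 6 in the direct comparison (DESeq2 called 1 and 1, 1 and 1, and 3 and 4). The TGF-beta genes had 1 higher, 1 higher, and 2 higher with 1 lower (DESeq2 called 0, 1 and 1 higher). With AAV-ATF6N, 20 of the 22 matrix receptors had a log2 fold change above 0 and the median was 0.56, with 5 higher and 1 lower at an unadjusted p under 0.05 and 0 called by DESeq2. With AAV-XBP1S, 12 of 22 were above 0 and the median was 0.22 (1 higher at an unadjusted p under 0.05, 0 called by DESeq2), and the direct comparison had 4 higher at an unadjusted p under 0.05 and 1 called higher by DESeq2. Ctgf, a classical TGF-beta target, was at 75.0 and 103 CPM in AAV-GFP, 65.9 and 71.3 in AAV-XBP1S, with 197 and 187 in AAV-ATF6N, highest in both AAV-ATF6N libraries and lowest in both AAV-XBP1S libraries. AAV-ATF6N against AAV-XBP1S gave 1.49 (SE 0.22; edgeR adjusted p = 0.0590). The gelatinase Mmp9 had 76 and 28 counts in AAV-GFP, 8 and 2 in AAV-XBP1S and 0 in both AAV-ATF6N libraries. Mmp9 passed the filter on low counts only through AAV-GFP, so it gives no independent support in the counts of lower genes against AAV-GFP. The others of smallest p had these log2 fold changes: with AAV-XBP1S Mmp14 1.08, Fstl1 0.68, Itga1 1.12 and Itga8 1.34; with AAV-ATF6N Adamts1 1.5, Skil 1.07, Itgav 1.26 and Sdc2 0.86; in the direct comparison Ctsk -1.08, Tgfb1 -0.73, Sdc4 0.93 and Itga3 0.78.

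Markers of other cell types were read beside the matrix genes, since all these libraries came from a sort for cardiomyocytes. Over 14 fibroblast markers that are not among the 42 genes, the summed level was 656 and 711 CPM with AAV-GFP, 1062 and 1034 with AAV-XBP1S and 733 and 721 with AAV-ATF6N, and 0 of the 14 were at 0 in any library. The list was thus highest in AAV-XBP1S, and its median log2 fold change was 0.50 with AAV-XBP1S and 0.02 with AAV-ATF6N, with 12 and 8 of 14 above 0. Over 15 endothelial markers the sums were 2052 and 2009, 2311 and 2429, and 1203 and 1100 CPM, with 0 of the 15 at 0: they were lowest in AAV-ATF6N. Their median log2 fold change with AAV-ATF6N was -0.66 with 1 of 15 above 0. That of AAV-ATF6N against AAV-XBP1S was -0.94 with 0 of 15 above 0, although 0 of 15 passed in edgeR. At an unadjusted p under 0.05, 8 and 12 were lower in these comparisons (6.54% and 7.55% of all genes tested). DESeq2 called 6 and 9 lower (1.65% and 3.55% of all genes). Of the 42 matrix and fibroblast genes, 36 were above 0 and 6 below with AAV-ATF6N against AAV-GFP. Among those below, the groups did not overlap for Col5a2, Fbln1, Sparc and Tcf21 (26.7% of all genes tested). In the same comparison, 10 of the 10 basement membrane genes were above 0, including Lamc3, which passed the low-count filter only through AAV-ATF6N. In the direct comparison 6 of the 10 basement membrane genes had log2 differences below 0 and 4 above, with a median of -0.08. Those below ran from Lama4 (-0.45, SE 0.33) to Col4a1 (-0.07, SE 0.33). Above 0 were Lamc1 (0.11, SE 0.38), Lama2 (0.65, SE 0.20), Lamb2 (1.15, SE 0.44) and the barely detected Lamc3.

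For 12 markers of smooth muscle and pericytes the sums were 999 and 1131, 1162 and 1275, and 1364 and 1318 CPM, with 0 of 12 at 0. Their median log2 fold change was 0.51 with AAV-XBP1S, with 12 of 12 above 0, and -0.01 with AAV-ATF6N, with 6 of 12 above 0. With AAV-ATF6N, 3 were lower at an unadjusted p under 0.05 and DESeq2 called 2 lower (6.54% and 1.65% of all genes tested). For 17 of macrophages and leukocytes they were 52.9 and 53.5, 77.7 and 67.1, and 67.9 and 67.4 CPM, with at most 2 of the 17 at 0 in a library. For 7 of activated fibroblasts they were 25.4 and 25.1, 30.7 and 26.3, and 20.8 and 22.5 CPM, with at most 1 at 0. Schwann cell markers summed to between 3.10 and 6.77 CPM, and 4 adipocyte markers to at most 0.0739. Erythroid markers summed to 277 and 130, 106 and 69.7, and 41.7 and 40.7 CPM, highest in AAV-GFP replicate 1. Of the 3 tested, 1 passed downwards with AAV-ATF6N (edgeR adjusted p = 0.0470, against 0.165% of all genes). Epicardial and mesothelial markers summed to 5.73 and 7.18, 37.9 and 31.2, and 14.4 and 15.6 CPM, of which Krt8 was 24.5 and 19.1 CPM in AAV-XBP1S. Of these 8, 1 passed upwards with AAV-XBP1S (edgeR adjusted p = 0.0423, against 0.178% of all genes). The median log2 fold change was 0.27 with AAV-XBP1S and 1.76 with AAV-ATF6N, with 6 and 7 of 8 above 0. The cardiomyocyte markers summed to 160757 and 146793, 121340 and 121243, and 166250 and 164351 CPM, so the sum was lowest in AAV-XBP1S. Their median log2 fold change was -0.55 with AAV-XBP1S, with 2 of 14 above 0. With AAV-ATF6N the median was -0.30, with 5 of 14 above 0, although the sum was higher than in AAV-GFP. The part of these other cells in the matrix gene values was not tested.

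**Figure D4:**
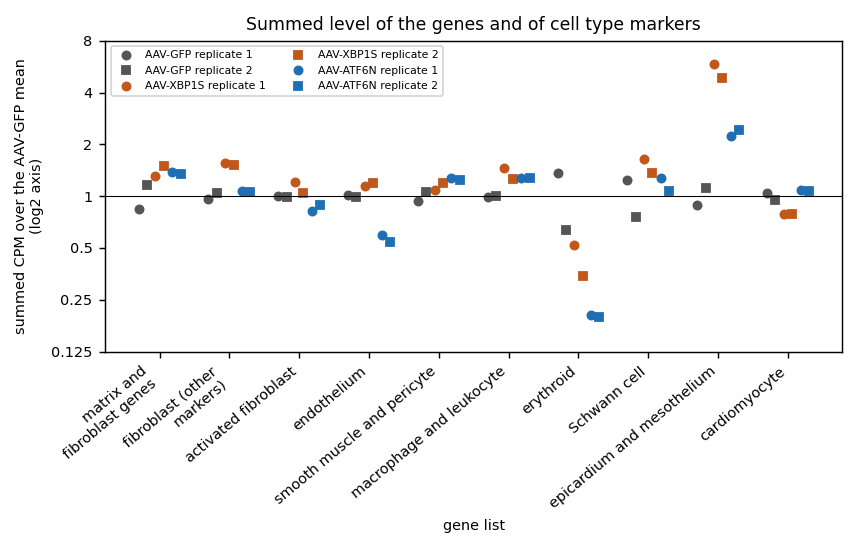
For each gene list, the summed CPM of each library is shown relative to the mean of the 2 AAV-GFP libraries on a log2 axis, with colours for the groups and shapes for the replicates. The matrix and fibroblast genes are above the controls in all 4 factor libraries, the other fibroblast markers are above them chiefly in AAV-XBP1S, and the endothelial markers are below them in AAV-ATF6N.

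Gene length moved with these results. The 42 genes had a median exonic length of 5231 bases, against 2826 over all genes tested, and 26 of the 42 were in the longest 25% (over 4298 bases). Over all genes, the median log2 fold change with AAV-ATF6N was -0.43 in the shortest 25% and 0.30 in the longest, and with AAV-XBP1S -0.22 and 0.12. With a length-dependent offset in the fit, the median of the 42 genes was 0.34 with AAV-ATF6N (0.61 without the offset) and 0.65 with AAV-XBP1S (0.74 without it), and the direct comparison gave -0.24 (-0.08 without it). In that fit Dcn and Serping1 passed upwards and Fbln1 downwards with AAV-XBP1S, and 0 passed with AAV-ATF6N. It called 125 of all genes higher and 164 lower with AAV-XBP1S, and 132 and 92 with AAV-ATF6N.

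The size of the shift depended on which control library was used. Without AAV-GFP replicate 1 the median over the 42 genes was 0.46 with AAV-XBP1S and 0.30 with AAV-ATF6N, with 37 and 34 of 42 above 0 and 0 passing in edgeR. Without AAV-GFP replicate 2 the medians were 1.04 and 1.01, and 5 passed upwards with AAV-XBP1S and 20 with AAV-ATF6N, with 2 downwards. Of all 15274 genes tested in that fit, 218 were called higher and 104 lower with AAV-XBP1S, against 1549 and 1506 with AAV-ATF6N. Left with replicate 1 as the lone control, that fit assumes that its spread is like that of the other groups. The number of genes higher at an unadjusted p under 0.05 ran from 7 (without AAV-XBP1S replicate 2) to 27 (without AAV-GFP replicate 2) with AAV-XBP1S, while the share of all genes ran from 3.18% to 17.3% in the same fits. With AAV-ATF6N it ran from 5 (without AAV-ATF6N replicate 1) to 29 (without AAV-GFP replicate 2), and the share of all genes from 2.48% to 21.5%. In each of these fits the median of the 42 genes was above that of all genes in both comparisons with AAV-GFP.

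**Figure D5:**
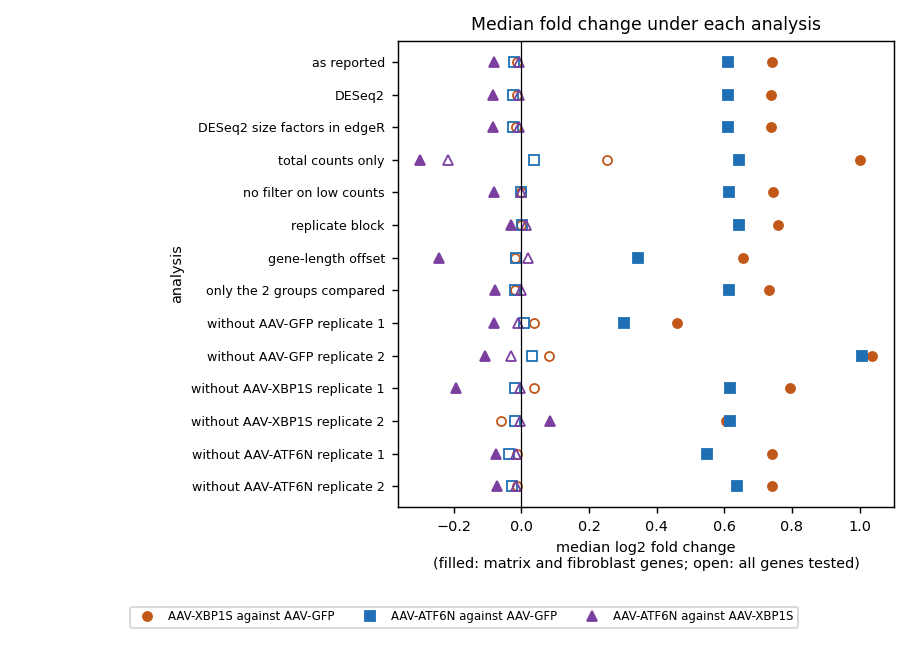
Each row is an analysis and the horizontal axis the median log2 fold change, over the 42 genes (filled) and over all genes tested (open), for the 3 comparisons. Filled orange and blue symbols are right of the open ones in every row, nearest without AAV-GFP replicate 1 (0.46 and 0.30) and furthest without AAV-GFP replicate 2 (1.04 and 1.01).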

How the data were processed

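RNA of sorted mouse cardiomyocytes was sequenced in 6 libraries, which were made with the SMART-Seq v4 and Nextera XT kits, per the labels' protocols. The deposited count table holds whole-number counts per gene made by the authors, with exonic lengths and mm10 coordinates per the file header, and STAR, featureCounts and DESeq2 are named in the submitters' processing notes. The sources used here give no versions, gene annotation or strand setting. In the authors' 2 deposited comparison tables, the values are a mean normalised signal, log2 fold changes, their standard errors and test statistics (a score) and p-values. The authors' tables were used only where named.

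From the counts, edgeR 4.0.16 (R 4.3.3) was run on all 6 libraries with group as the model, after filterByExpr with a count minimum of 10 and scaling by the trimmed mean of M values. The quasi-likelihood test was two-sided, with Benjamini-Hochberg adjustment over 14587 genes and a threshold of 0.05, and standard errors (SE) were taken as the absolute log2 fold change over the root of the F statistic. The script was tested on simulated data. CPM use the scaled library size, and levels between genes are compared only as CPM per kilobase of exon. DESeq2 1.42.0 and the other alternatives are given in the closing section.

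Groups came from the labels. The 42 genes and the other lists were chosen with earlier results of these data known. Named in full were the 8 genes of smallest p per comparison and the gene of highest level per length in each role group; of each pathway list, the 2 of smallest p, of which 1 gene is not reported here. Of the other lists, 3 symbols matched through RefSeq synonyms and 1 (Hbb-bt) was unmatched. Promoters came from RefSeq. Protein sequences were not analysed here.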

Additional observations from a re-analysis of the deposited data

How the results depend on the processing

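With 2 libraries a group, the count of the 42 genes that passed depended on the tool and the filter, whereas the medians kept their sign against AAV-GFP in every fit. For AAV-XBP1S against AAV-GFP (0 higher and 0 lower as reported), DESeq2 called 6 higher and 1 lower. The fit with no filter on low counts called 2 higher, and the gene-length offset 2 higher and 1 lower. Of all genes tested, 26 were called higher and 20 lower as reported, and 306 and 214 by DESeq2. With no filter they were 137 and 96, and with the offset 125 and 164. For AAV-ATF6N against AAV-GFP (0 and 0), DESeq2 called 6 higher and the fit with no filter 4 higher. Of all genes, 51 were called higher and 24 lower as reported, 353 and 240 by DESeq2, and 226 and 122 with no filter. For AAV-ATF6N against AAV-XBP1S (0 and 0), DESeq2 called 1 higher, Lamc3, and 2 lower. The offset called 1 lower, and the fit of the 2 groups alone 3 lower. Of all genes, 25 were called higher and 8 lower as reported, and 321 and 518 by DESeq2. With the offset they were 257 and 349, and with the 2 groups alone 274 and 389. The cause was not tested.

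With the replicate block, 1 gene was called higher with AAV-XBP1S and 1 with AAV-ATF6N, Tnc in both. That fit called 92 of all genes higher and 73 lower with AAV-XBP1S, and 163 and 74 with AAV-ATF6N. Over all genes tested, the deviations of same-numbered libraries from their group mean correlated at 0.663, -0.11 and -0.13 in the 3 comparisons. With 2 libraries a group, the deviations of a group mirror each other. On the first principal component, replicates 1 and 2 lay at -63.8 and 4.96 in AAV-GFP and at -24.3 and 16.8 in AAV-XBP1S. Whether the same number marks a shared step of preparation was not tested. The AAV-ATF6N numbers were also crossed in the block, an alternative chosen after seeing the data. Then 4 were called higher and 1 lower with AAV-XBP1S, 6 higher with AAV-ATF6N, and 1 higher and 2 lower in the direct comparison. Of all genes, the crossed fit called 137 higher and 106 lower, 352 and 172, and 276 and 357 in the 3 comparisons.

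With 1 library left out, the genes called higher ranged from 0 to 5 with AAV-XBP1S (median 0.46 to 1.04), from 0 to 20 with AAV-ATF6N (0 to 2 lower, median 0.30 to 1.01) and the genes called lower from 0 to 3 in the direct comparison (median -0.19 to 0.08). The extremes of the medians against AAV-GFP came without AAV-GFP replicate 1 and without replicate 2. Scaling by total counts moved the median of all genes to 0.25 with AAV-XBP1S and to -0.22 in the direct comparison; relative to it, the 42 genes stood at 0.75 and -0.08. DESeq2's size factors in edgeR left every count of called genes at 0. Genes under about 1 CPM, such as Lamc3 and Tnc in the controls, are limited by counting.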

Other observations

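Col4a1 and Col4a2, which encode the partner chains of collagen IV, lie head to head on opposite strands of mouse chromosome 8, and their ratio per length varied less than their levels: it was 0.954 and 1.32 with AAV-GFP, 1.23 and 1.48 with AAV-XBP1S, 1.40 and 1.36 with AAV-ATF6N. The collagen VI chains were less even. Col6a3, the longest of them, stood at 0.0625 and 0.132 of Col6a2 per length in AAV-GFP, 0.0998 and 0.148 with AAV-XBP1S, 0.204 and 0.180 with AAV-ATF6N, so the AAV-ATF6N libraries were above the other 4. Col6a1 stood at 0.959 and 1.59 of Col6a2 in AAV-GFP, 1.45 and 1.54 with AAV-XBP1S, 1.57 and 1.70 with AAV-ATF6N. AAV-GFP replicate 1 was the lowest library in each of these 3 ratios.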
